A study of Zea mays with 12 samples.

Results

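The young ear of maize at the V9 vegetative stage was compared between droughted and watered plants in 4 RNA sequencing libraries of the 12 in the series. They are all of the libraries labelled as ear: 2 from ears of droughted plants (drought ear) and 2 from ears of watered plants (control ear). All plants were of the inbred line B104, and no transgene or mutant allele is named for either group. In the drought group soil moisture in the field plots had been held low for 5 days before sampling, and the control group stayed watered. Each library pooled the upper ears of 4 plants, so single plants cannot be compared. The other 8 libraries come from kernels and ear leaves of plants that had been pollinated 5 days before, again with 2 libraries per treatment, and are used below only to show where the ear differed.

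At this stage the ear is an inflorescence that is still forming its spikelets and florets. Its tip meristem keeps dividing and gives off rows of lateral meristems, whose identity is set by transcription factors of families such as KNOX, AP2, SBP and MADS, and whose branching is held back by the ramosa genes. Dividing cells make histones, replication enzymes, cyclins and kinesins in step with the cell cycle. In plants short of water, abscisic acid is made and relieves SnRK2 kinases from the grip of protein phosphatases 2C, after which dehydrins and other late embryogenesis proteins, chaperones and osmolyte enzymes are made.

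Rounded expected counts, the estimated numbers of reads per gene, summed to 5117208 and 5118613 in the drought ear libraries, against 5300495 and 5215676 in the control ear libraries. The libraries of a group lay close together. Between the 2 libraries of a group, a chi-square taken over genes averaging 20 counts or more came to 1.27 per gene in drought ears and 1.37 in control ears, where counting error alone gives a value near 1, and the common biological coefficient of variation was 0.0275. The labels do not say whether the 2 libraries of a group came from separate plots, so the p-values measure the spread between these libraries, which may be technical. Ear markers checked the tissue: kn1 (GRMZM2G017087), which marks meristem cells, had 177 and 182 FPKM (a level scaled to gene length and depth) in drought ears and 219 and 219 FPKM in control ears, and at most 2.1 FPKM in any ear leaf library. Over the 11 ear markers the summed level was 511 and 515 FPKM in drought ears, against 659 and 666 FPKM in control ears, and 14.4 to 21.2 FPKM in the ear leaf. In the kernel this sum was 233 to 361 FPKM, so it sets the ear apart from the leaf more than from the kernel. Not every marker was higher in the ear: zag1 (GRMZM2G052890) had 16.0 to 19.2 FPKM in the ears and 39.3 to 55.1 FPKM in the kernel. Summed over the 5 leaf markers that could be matched, the level was 70.8 to 73.4 FPKM in drought ears and 55.0 to 55.7 FPKM in control ears, and 4877 to 14751 FPKM in the ear leaf. The summed level of 13 matched endosperm genes overlapped between organs, at 45.0 to 51.3 FPKM in the ears and 43.5 to 78.9 FPKM in the kernel, and 3 of them were at 0 in every ear library. Among them the cell wall invertase gene mn1 (GRMZM2G119689) had 0 to 0.61 FPKM in the ears, against 6.44 to 41.87 FPKM in the kernel. Others did not separate the organs this way. The gene bt2 (GRMZM2G068506) had 17.1 to 21.0 FPKM in the ears and 7.0 to 15.1 FPKM in the kernel. For pbf1 (GRMZM2G146267) the levels overlapped, at 20.1 to 27.4 FPKM and 15.45 to 21.1 FPKM.

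Drought ears and control ears differed in nearly as many genes that fell as rose. Of 22069 genes with enough counts to test, 1059 were called up, which is 4.8% of them, and 870 were called down, which is 3.94%, or 8.74% in both directions. Among the 2120 tested genes with a maize name, from which the gene groups below were drawn, 6.27% were called up and 6.42% down. A gene was called when edgeR's quasi-likelihood test gave an adjusted p under 0.001 and the log2 fold change was at least 1 in size. Over all genes tested, the log2 fold change had a median of 0.01. Rises were larger than falls: 203 of the 1059 rises were 3 or more on the log2 scale, against 32 of the 870 falls, and the median size was 1.58 for rises and 1.38 for falls. Falls took more of the reads. Genes called down held 3.66% and 3.65% of the counts in the drought ear libraries, against 10.2% and 10.5% in the control ear libraries. For genes called up, the shares were 6.59% and 6.59% in drought ears, against 2.08% and 2.12% in control ears. Fewer genes were called when 1 control library was left out, and about as many when 1 drought library was, as the closing section gives. Each of these fits leaves 1 library in a group, which is assumed to vary like the pair in the other group. A call lost in them need not mean a changed effect. For GRMZM2G014392, whose call was lost without control ear replicate 2, the log2 fold change was 2.04 there and 2.05 with all 4 libraries.

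The balance of rises and falls turned with abundance, given here in CPM (counts scaled to a common library size). Of 6698 genes with a mean of 1 to 10 CPM over the 4 ear libraries, 350 (5.23%) were called up and 189 (2.82%) down. In the class of 10 to 100 CPM, which held 13184 genes, 629 (4.77%) were up and 518 (3.93%) down. Of 2147 genes at 100 to 1000 CPM, 75 (3.49%) were up and 158 (7.36%) down. The 40 genes at 1000 CPM or more had 5 of each, and a median absolute log2 fold change of 0.74, against 0.32 in both middle classes. Detection limits the lowest class, where the median standard error was 0.34 on the log2 scale: only 34.4% of its genes with a fitted change of 2-fold or more were called, against 99.1% at 10 to 100 CPM and 100% above.

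**Figure D1:**
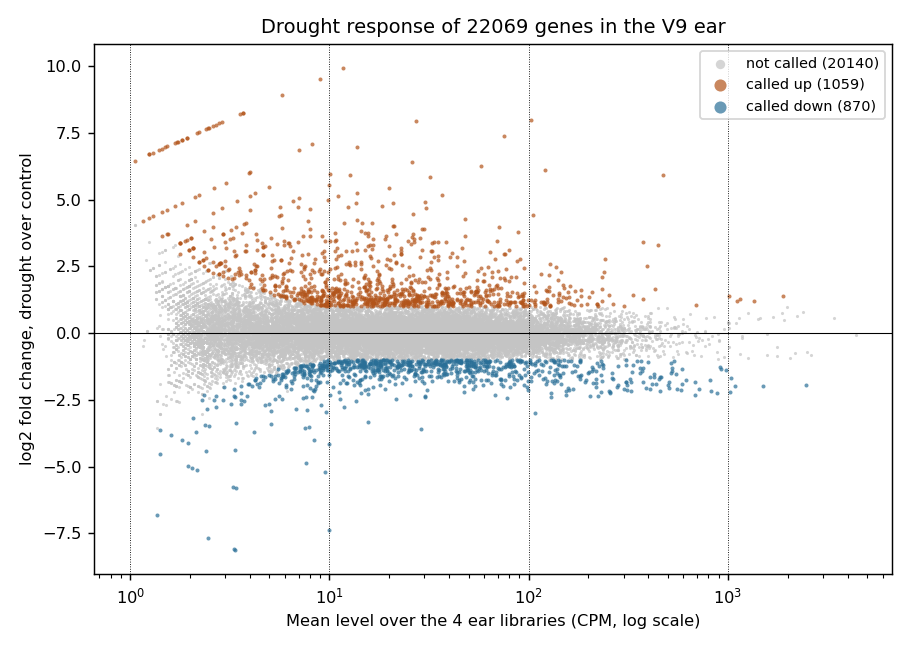
Each point is one of 22069 tested genes, placed by its mean level over the 4 ear libraries (CPM, log scale) and its log2 fold change, drought ear over control ear, with called genes coloured and dotted lines at the borders of the abundance classes. Genes called up (1059) spread to higher values than genes called down (870), which sit mostly between -1 and -3 and reach further into the abundant classes.

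The genes that gained most reads were a ubiquitin gene, zinc finger genes and chaperones. Ubiquitin (GRMZM2G409726), whose protein tags others for the proteasome, had 2775 and 2704 CPM in drought ears and 1035 and 1049 CPM in control ears, a log2 fold change of 1.39 ± 0.03 (SE, n = 2 libraries each; edgeR adjusted p = 2.67e-17). For znf1 (GRMZM5G836222), which the reference also lists under the name AN13, the levels were 1911 and 1878 CPM against 808 and 829 CPM in control ears. Di19 (GRMZM2G038284), whose name stands for drought-induced, stood at 1645 and 1623 CPM in drought ears and 667 and 669 CPM in control ears. In these genes, as in every called gene, both drought libraries lay outside the range of the control libraries, but so they did in 72.6% of all tested genes. A Hsp90-type gene (GRMZM2G069651, annotated by its Arabidopsis match Hsp81.4) reached 1554 and 1556 CPM, against 677 and 671 CPM in control ears. The raffinose-pathway gene AGA1 (GRMZM2G340656), annotated as seed imbibition 2, had 817 and 812 CPM in drought ears, against 79.7 and 85.7 CPM. The dehydrin rab17 (GRMZM2G079440), which protects cells as they dry, was higher by 5.91 ± 0.10 on the log2 scale, at 923 and 935 CPM against 15.3 and 15.6 CPM in control ears. The other genes of the 10 largest gains were Hsp70, hsp101 and the unnamed GRMZM2G123896 and GRMZM2G117198.

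Among the 10 largest losses of reads, the 3 genes with a name are histones: his2b2, his2a1 and hon110, described with their family below. The other 7 carry no name in the reference used. GRMZM2G101268 lost the most, with 1049.9 and 994 CPM in drought ears, against 3901 and 3899 CPM in control ears, and a log2 fold change of -1.93 ± 0.03 (adjusted p = 6.63e-19). GRMZM5G873455 followed at 628 and 599 CPM, against 2329 and 2465 CPM in control ears. The remaining 5 had log2 fold changes between -2.31 and -1.74.

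Some genes were close to absent in one treatment. There were 16 genes with at most 3 counts in each control ear library and a mean of at least 10 CPM in drought ears, and 2 of the opposite kind. The most abundant of the 16 in drought ears, AC233879.1, had 55.2 and 52.9 CPM in drought ears and 1 count in each control ear library, a ratio of 277 with an exact 95% counting interval of 76.2 to 2289. These ratios compare summed counts, and their intervals cover counting error only. A gene of a late embryogenesis abundant protein (GRMZM2G072322) had 26.5 and 28.3 CPM in drought ears, against 0 and 2 counts in control ears, a ratio of 140.5 (interval 38.5 to 1165). The unnamed GRMZM2G154747 had 25.4 and 21.6 CPM in drought ears and 0 counts in both control ear libraries, and was at least 40.1-fold higher, taking 3 counts per library as the floor. Of the 2 that were close to absent in drought ears, GRMZM2G053231 has no name, with 0 and 1 counts in drought ears, against 18.6 and 21.1 CPM in control ears. The other was the haemoglobin gene Hb (GRMZM2G067402). It had 3 and 2 counts in drought ears, against 75 and 76 counts in control ears, a ratio of control over drought ears of 30.7 (exact 95% counting interval 12.9 to 96.1).

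Of the 12 largest rises among genes with above 3 counts in every library and outside the study's own tables of ear genes, 8 have neither a name nor an annotation here. The others were the embryo storage globulin glb1 (GRMZM2G067919), an ethylene response factor matched to Arabidopsis ERF7 (GRMZM2G089995), a class II small heat shock protein (GRMZM2G012455) and a hydrolase of the haloacid dehalogenase family (GRMZM2G174396). The ERF7 match had 56.9 and 54.8 CPM in drought ears, against 4.64 and 2.76 CPM in control ears, a log2 fold change of 3.90 ± 0.24. The largest rise of the 12 was that of the unnamed GRMZM2G001853, with 63.5 and 62.8 CPM, against 1.16 and 0.987 CPM. Among the 12 largest falls only P4H4 (GRMZM5G843555), a prolyl 4-hydroxylase, has a name, with 1.15 and 1.34 CPM in drought ears, against 13.5 and 15.4 CPM in control ears. The most abundant of these falls was GRMZM2G181607, at 3.85 and 4.98 CPM against 53.2 and 52.9 CPM in control ears. In the largest, GRMZM2G140524, the control libraries differed from each other, with 0.962 and 1.15 CPM in drought ears and 26.5 and 11.5 CPM in control ears.

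Histone genes fell together. Of 12 genes named as histones, all tested, 11 were called down and 0 up, with a median log2 fold change of -1.81. Their summed level was 4194 and 4239 CPM in drought ears, against 12467 and 12817 CPM in control ears. The gene his2b2 (GRMZM2G119071), for a core histone, had 319 and 298 CPM in drought ears and 1458 and 1479 CPM in control ears, a log2 fold change of -2.25 ± 0.04 (edgeR adjusted p = 1.07e-18). For his2a1 (GRMZM2G305046), the levels were 444 and 443 CPM, against 1691 and 1773 CPM. The linker histone gene hon110 (GRMZM2G164020) stood at 481 and 498 CPM in drought ears and 1547 and 1623 CPM in control ears. The member not called was the linker histone hon102 (GRMZM2G401308), with a log2 fold change of -0.86 ± 0.03. Core and linker histones thus moved the same way. In each case drought libraries lay below both control libraries, but the groups were also apart in 72.6% of all tested genes. Histone genes have near-identical copies, among which the counting may have divided reads, so the sum is firmer than any member, and 7 of the 12 are also in the study's own tables, which were chosen on these samples. In bulk tissue, fewer dividing cells and less RNA per cell cannot be told apart, here and in the groups that follow. The count of 11 was the same under all 13 alternative settings.

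Among other chromatin proteins fewer genes were called. Of 17 genes for high mobility group and chromatin assembly proteins, which bend DNA or load histones, 4 were called down and 0 up, with a median of -0.50. The largest fall was that of nfd106 (GRMZM2G125648), at 62.3 and 65.1 CPM in drought ears, against 278 and 260.4 CPM in control ears. Its relative nfd101 (GRMZM2G066528) had 288 and 282 CPM, against 763 and 766 CPM in control ears. The histone chaperone subunit gene ssrp1 (GRMZM2G032252), by contrast, had a log2 fold change of 0.15 ± 0.05 and was not called.

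DNA replication and repair genes were called down in 6 of 15 and up in 0, with a median log2 fold change of -0.86. The sliding clamp gene pcna2 (GRMZM2G108712), which holds DNA polymerase on its template, had 73.3 and 71.0 CPM in drought ears and 209 and 219.9 CPM in control ears, a log2 fold change of -1.57 ± 0.06. Its copy pcna1 (GRMZM2G030523) missed the size threshold at -0.99 ± 0.09. Ribonucleotide reductase makes the building blocks of DNA, and its small-subunit genes RNRS1 (GRMZM2G060163) and RNRS3 (GRMZM2G323679) had log2 fold changes of -1.49 ± 0.06 and -1.06 ± 0.06. The large-subunit gene RNRL1 (GRMZM2G304378) went the other way without being called, at 224 and 211 CPM in drought ears and 155 and 161 CPM in control ears. The strand exchange genes rad51a (GRMZM2G121543) and rad51b (GRMZM2G084762) and the origin recognition gene orc2 (GRMZM2G117238) made up the rest of the 6. Of the helicase and origin genes MCM6, MCM7, orc1, orc3 and orc4, 0 were called, with log2 fold changes between -0.86 and -0.36. The count of 6 fell to 3 without control ear replicate 2.

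Kinesins, the motor proteins that move along microtubules, include several that work in the spindle. Of 12 genes with a kinesin name, 6 were called down and 0 up, and all 12 had a negative log2 fold change, with a median of -0.95. They include td1 (GRMZM2G300133), which is there only through its second name KIN5 and is given below with the meristem size genes. The motor gene kin13 (GRMZM2G034828) had 93.5 and 82.3 CPM in drought ears, against 263 and 271 CPM in control ears. For one of the 2 genes named kin2 (GRMZM2G136838), the levels were 69.8 and 68.4 CPM, against 214 and 222 CPM, while the other (GRMZM2G180704) had a log2 fold change of -0.41 ± 0.07 and was not called. Of 12 cyclin and cell cycle kinase genes, 6 fell and 1 rose, with a median of -1.10. Most abundant among them was cyclin4 (GRMZM2G310115), with 123 and 121 CPM in drought ears and 288 and 306 CPM in control ears. The spindle checkpoint gene mad2 (GRMZM2G047143) had a log2 fold change of -1.23 ± 0.08, and wee1 (GRMZM5G878541), an inhibitory kinase of the cell cycle, one of -1.23 ± 0.11. The kinase gene cdc2 (GRMZM2G008327) stood at 68.7 and 68.6 CPM, against 64.4 and 65.7 CPM, a log2 fold change of 0.08 ± 0.08. The single rise was Cyclin-SDS (GRMZM2G093157), which in Arabidopsis acts in meiosis, at 14.2 and 12.6 CPM in drought ears, against 6.96 and 6.12 CPM in control ears, and it was not called under 7 of the 13 alternatives.

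Structural and growth genes shifted by less than 2-fold for the most part. Of 13 tubulin genes, the subunits of microtubules, 1 was called down, yet 11 had a negative value and the median was -0.74. The most abundant, tua4 (GRMZM2G152466), had 1891 and 1868 CPM in drought ears and 3349 and 3321 CPM in control ears, a log2 fold change of -0.83 ± 0.03. Summed tubulin levels were 5225 and 5174 CPM, against 8609 and 8561 CPM in control ears. Ribosomal protein genes had a median of -0.25 over 38 genes, of which 1 was called down and 0 up. The single tubulin and ribosomal calls were both lost with library size scaling, with no filter on low counts and with limma. For actins and profilins the median was -0.15 over 9 genes, with the profilin gene PRO4 (GRMZM2G108780) called down at -1.25 ± 0.06.

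**Figure D2:**
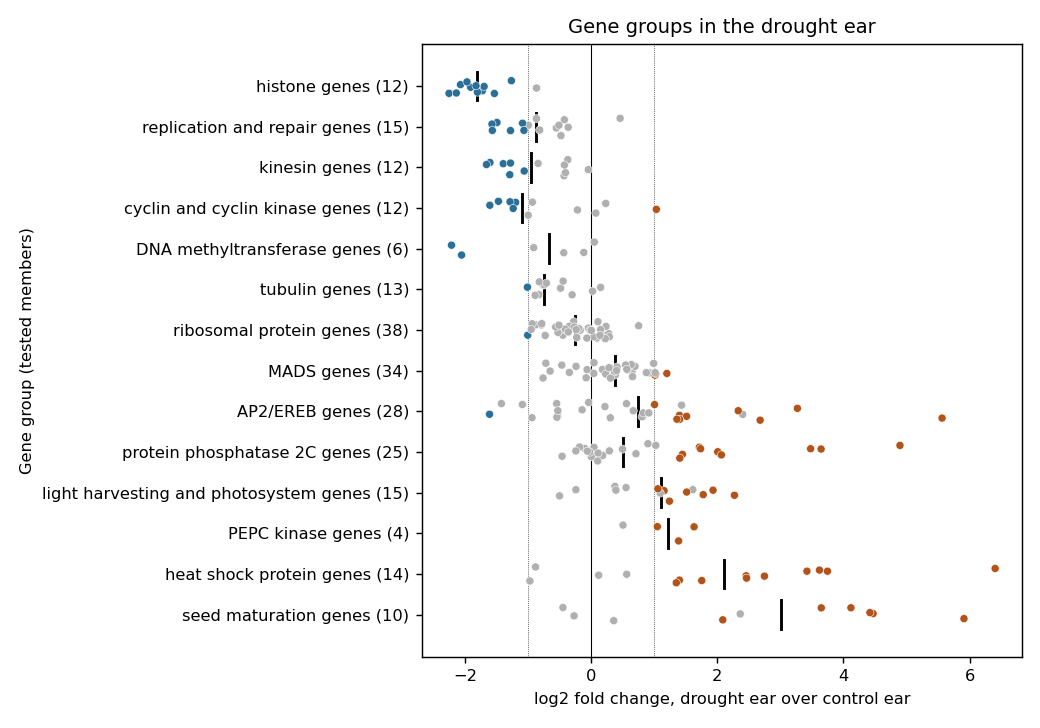
Each point is one tested gene of the named group at its log2 fold change, drought ear over control ear, with genes called up in orange, called down in blue and not called in grey, the group median as a black bar and dotted lines at -1 and 1. The medians of histones, replication genes, kinesins and cyclins lie to the left of 0, and those of photosystem, heat shock and seed maturation genes to the right.

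DNA methyltransferases, which keep or set cytosine methylation, were called down in 2 of 6 and up in 0. The gene met2 (GRMZM2G025592) had 100.4 and 82.7 CPM in drought ears, against 426 and 421 CPM in control ears, a log2 fold change of -2.21 ± 0.07 (adjusted p = 8.70e-16). For met5 (GRMZM2G005310), the levels were 58.9 and 63.2 CPM and 254 and 252 CPM. The more abundant of the 2 entries named met1 (GRMZM2G334041) had a log2 fold change of -0.91 ± 0.06 and was not called. Both calls held under all 13 alternatives. This group, and those of histone deacetylases, small RNA pathway, sucrose cleavage and abscisic acid synthesis, were picked out after values had been seen. Of 9 histone deacetylase genes only hda1 (GRMZM2G457889) was called down, with a log2 fold change of -1.09 ± 0.08. Of 9 genes of small RNA pathways, such as the dicer genes, 0 were called by edgeR, DESeq2 or limma, and 3 had an unadjusted edgeR p under 0.05, with a median of -0.09.

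Chaperone genes rose, though not all of them. Of 14 heat shock protein genes 10 were called up and 0 down, with a median log2 fold change of 2.11. The disaggregase gene hsp101 (GRMZM2G360681) had 698 and 675 CPM in drought ears and 64.4 and 63.8 CPM in control ears, a log2 fold change of 3.42 ± 0.06 (edgeR adjusted p = 2.81e-19). Hsp70 (GRMZM2G310431) reached 1509 and 1446 CPM, against 563 and 557 CPM in control ears. The Hsp90-class gene hsp82 (GRMZM5G833699) went furthest, with 52.9 and 50.4 CPM in drought ears and 5 and 1 counts in the control ear libraries, a log2 fold change of 6.40 ± 0.59. Of the same class, GRMZM2G069651 was also called up, with its levels given above among the largest gains. By contrast, HSP90-1 and HSP90-2 had negative values that missed the size threshold. HSP90-1 (GRMZM2G024668) stood at 669.7 and 687 CPM in drought ears and 1236 and 1259 CPM in control ears, and HSP90-2 (GRMZM2G012631) had a log2 fold change of -0.97 ± 0.04. The small heat shock protein gene hsp18f (GRMZM2G083810) had 233 and 233 CPM, against 42.5 and 41.9 CPM in control ears. Heat shock factors, which switch such genes on, were called up in 2 of 10 and down in 0. These calls, of Hsf03 (GRMZM2G164909) and of GRMZM2G133023, rest on genes with means under 10 CPM and were lost when either control library was left out. For GRMZM2G133023 only the reference's name, Hsf05, makes it a heat shock factor: the study's table annotates it as an aluminium-induced protein, and GRMZM2G132971, with the same name, had a log2 fold change of -0.13 ± 0.08 and was not called. A further 3 genes are heat shock transcription factors by annotation text in the study's tables, which cover genes chosen on these samples, and 2 of them were called up under each of the 13 alternatives. The largest rise of the 3 was that of GRMZM2G105348, with 107.5 and 121.8 CPM in drought ears, against 0.967 and 1.97 CPM in control ears, a log2 fold change of 6.27 ± 0.40.

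**Figure D3:**
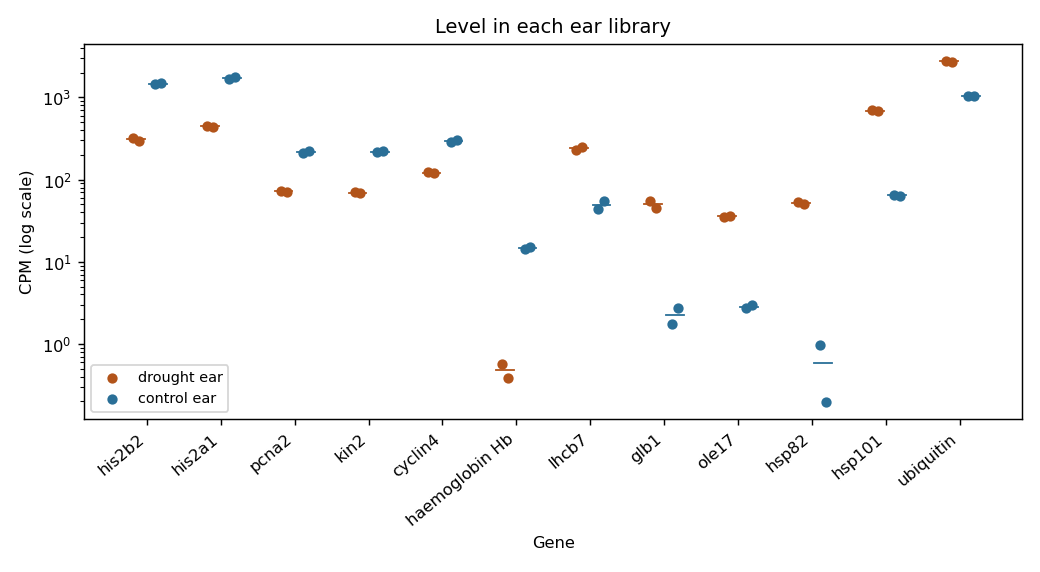
Level of 12 genes in each of the 4 ear libraries (CPM, log scale), with drought ear libraries in orange at the left of each pair, control ear libraries in blue at the right, and bars at the group means. All 12 are called genes, and the groups do not overlap for any of them, as in every called gene and in 72.6% of all tested genes. The libraries of a group are furthest apart for the few control ear counts of hsp82. The example of hsp101 shows 698 and 675 CPM in drought ears against 64.4 and 63.8 CPM in control ears.

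In the abscisic acid pathway, 2 of 3 tested synthesis genes and 9 of 25 phosphatase genes were called up, and 0 of 6 receptor genes were called. Without control ear replicate 2, or with no filter on low counts, 0 synthesis genes were called, and without control ear replicate 1, 1 was. The synthesis gene vp14 (GRMZM2G014392), which cleaves the carotenoid precursor, had 26.7 and 21.3 CPM in drought ears and 5.80 and 5.73 CPM in control ears, a log2 fold change of 2.05 ± 0.22. The count of 0 receptor genes held by edgeR, DESeq2 and limma, while 4 had an unadjusted edgeR p under 0.05, and 5 had a negative value. Protein phosphatases 2C include the inhibitors of the pathway, which abscisic acid itself induces. Of 25 such genes 9 were called up and 0 down, with a median of 0.50, and all 9 are in the study's own tables of ear genes, chosen on these samples. PP2C13 (GRMZM2G159811) had 58.9 and 58.8 CPM in drought ears, against 2.32 and 1.58 CPM, a log2 fold change of 4.89 ± 0.31. Of 9 kinase genes of the SnRK2 and CIPK types, 1 was called up and 1 down. The fall was in SnRK2.7 (GRMZM2G155593), at 33.7 and 34.3 CPM in drought ears, against 103 and 98.7 CPM in control ears.

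Genes best known from maturing seeds were expressed in the drought ear. Of 10 tested, 6 were called up and 0 down, with a median of 3.01. The storage protein gene glb1 (GRMZM2G067919) had 55.2 and 45.4 CPM in drought ears and 1.74 and 2.76 CPM in control ears, a log2 fold change of 4.47 ± 0.32 (adjusted p = 2.62e-12). Oleosins coat oil bodies, and the oleosin gene ole17 (GRMZM2G480954) had 182 and 191 counts in drought ears, against 14 and 15 counts in control ears, a log2 fold change of 3.65 ± 0.26. The stress gene asr1 (GRMZM2G136910) stood at 142 and 138 CPM, against 33.5 and 32.4 CPM. Not every gene grouped here rose. The gene RAB15 (GRMZM2G165901), placed here by its name alone, was abundant in both groups. It had 1219.9 and 1244 CPM in drought ears and 915 and 1006 CPM in control ears. The gene dhn2 (GRMZM2G373522) had a log2 fold change of -0.45 ± 0.06. A further storage globulin, glb2 (GRMZM2G026703), had 10 and 6 counts in drought ears and 11 and 8 counts in control ears.

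Photosynthesis genes were higher in the drought ear. Of 15 light harvesting and photosystem genes with a maize name, 8 were called up and 0 down, with a median of 1.10. The antenna gene lhcb7 (GRMZM2G402936) had 233 and 248 CPM in drought ears and 44.5 and 55.1 CPM in control ears, a log2 fold change of 2.27 ± 0.08 (edgeR adjusted p = 1.45e-14). Its relatives lhcb3 (GRMZM2G155216) and lhcb6 (GRMZM2G092427) had log2 fold changes of 1.93 ± 0.09 and 1.52 ± 0.12. Over the wider list of photosynthesis genes that the study drew from its ear leaf data, 26 of 71 tested were called up and 1 down, with a median of 0.82. The summed level of that list was 2194 and 2212 CPM in drought ears, against 1072 and 1127 CPM in control ears. A pair of genes on it (GRMZM2G414192 and GRMZM2G018627) had the same values in every library, and reads shared by near-identical copies may have been divided between them.

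Leaf tissue in the ear samples was looked at through the 5 leaf markers. The Rubisco small subunit gene ssu1 (GRMZM2G098520) had 12.3 and 10.9 CPM in drought ears and 10.1 and 13.2 CPM in control ears, and Rubisco activase rca1 (GRMZM2G162200) had 8.46 and 7.85 CPM, against 7.15 and 7.11 CPM. For me3 (GRMZM2G085019), the decarboxylase of bundle sheath cells, and ppdk1 (GRMZM2G306345), which regenerates the acceptor of carbon dioxide, the log2 fold changes were -0.12 ± 0.16 and -0.36 ± 0.10. Only mdh6 (GRMZM2G129513), a malate dehydrogenase gene, was called, at 52.9 and 52.7 CPM in drought ears, against 16.0 and 16.98 CPM in control ears. The higher sum of leaf markers in drought ears given above thus lay in mdh6, and the 4 others were within 0.36 of 0 on the log2 scale. Without control ear replicate 1, 4 named photosystem genes were called, and without control ear replicate 2, 3 were.

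Of 80 tested genes of glycolysis and the TCA cycle, as the study's tables list them, 8 were called up and 5 down. Their median log2 fold change was -0.26. Leaving out the 5 that are also in the study's own tables of ear genes, 4 of 75 were called up and 5 down, with a median of -0.32. PEP carboxylase kinases, which keep PEP carboxylase active, were called up in 3 of 4. PPCK4 (GRMZM2G049541) had 139.6 and 128 CPM in drought ears and 50.1 and 52.3 CPM in control ears. Among 7 tested genes for enzymes that cleave sucrose, sus2 (GRMZM2G318780) was called up, with 129 and 137 CPM in drought ears, against 8.51 and 8.49 CPM, a log2 fold change of 3.97 ± 0.15. The more abundant sucrose synthase genes sus1 (GRMZM2G152908) and sh1 (GRMZM2G089713) had log2 fold changes of -0.78 ± 0.03 and -0.75 ± 0.04 and were not called. The invertase gene IVR1 (GRMZM2G394450) was called down, with 9.23 and 6.13 CPM in drought ears and 16.6 and 17.6 CPM in control ears, and lost that call without control ear replicate 1 or 2 or drought ear replicate 2. Of 6 genes for haemoglobin and for fermentation, several of which low oxygen is known to induce in maize, 2 were called down and 0 up. The haemoglobin gene Hb was one of them, as described above. Alcohol dehydrogenase adh1 (GRMZM2G442658) had 330.0 and 326 CPM in drought ears and 717 and 714 CPM in control ears, a log2 fold change of -1.13 ± 0.04. Of 5 genes for glyceraldehyde phosphate dehydrogenase, gpc3 (GRMZM2G071630) and gpc4 (GRMZM2G176307) were called down, at -1.87 ± 0.06 and -2.12 ± 0.09. Its abundant relatives gpc1 (GRMZM2G046804) and gpc2 (GRMZM2G180625) stood at -0.20 ± 0.03 and 0.18 ± 0.03. The fermentation genes pdc3 (GRMZM2G087186) and adh2 (GRMZM2G098346) had log2 fold changes of -0.66 ± 0.06 and -0.50 ± 0.08 and were not called.

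Transport and wall genes split by member. Aquaporins, the water channels, were called up in 1 and down in 3 of 18. The rise was PIP1-1 (GRMZM2G174807), with 306 and 289 CPM in drought ears and 137 and 146 CPM in control ears. The more abundant PIP2-1 (GRMZM2G014914) stood at 529 and 527 CPM, against 925 and 974 CPM in control ears, and was not called. The 3 falls, all of genes under 20 CPM, were lost when either control library was left out. Potassium transporters of the HAK type were called up in 3 of 14, led by HAK25 (GRMZM2G375116) at 212 and 187 CPM, against 82.8 and 83.7 CPM in control ears. Only HAK25 kept its call without control ear replicate 2. Expansins loosen cell walls, and EXPA5 (GRMZM2G361064) had 104 and 102 CPM in drought ears, against 40.4 and 34.9 CPM in control ears, whereas expB8 (GRMZM2G013002) had a log2 fold change of -1.02 ± 0.07. The cellulose synthase-like gene CSLD1 (GRMZM2G015886) had 198 and 183 CPM, against 524 and 546 CPM, and CslF6-1 (GRMZM2G110145) rose by 1.26 ± 0.07. Of 14 autophagy genes 0 were called by edgeR, DESeq2 or limma, and 4 had an unadjusted edgeR p under 0.05, with a median of -0.06.

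Genes that shape the inflorescence were called down more often than named genes at large, and called up about as often. Of 50 tested, 3 (6%) were called up and 8 (16%) down, with a median log2 fold change of -0.23. Among all tested genes with a maize name, 6.27% were called up and 6.42% down. The 8 falls are few, and fewer were called in several of the alternative fits, as the closing section gives. Those that fell include genes that fix the fate of lateral meristems. The zinc finger gene ra1 (GRMZM2G003927), which holds back branching, had 3 and 1 counts in drought ears and 26 and 19 counts in control ears. Its partner ra3 (GRMZM2G014729), a trehalose phosphate phosphatase, had 1.54 and 2.49 CPM in drought ears, against 6.77 and 6.32 CPM in control ears. For bd1 (GRMZM2G307119), which makes spikelet meristems form florets in place of branches, the levels were 2.31 and 3.64 CPM and 11.0 and 12.4 CPM. The kinase gene bif2 (GRMZM2G171822), needed for axillary meristems and auxin transport, stood at 4.04 and 4.596 CPM in drought ears and 10.1 and 16.2 CPM in control ears. The LEAFY-type gene zfl1 (GRMZM2G098813) had a log2 fold change of -1.30 ± 0.23. These 5 genes are rare in the whole ear, all under 20 CPM, and none of the 5 was called without control ear replicate 2. Fewer cells of these meristems and less RNA in each cannot be told apart here either, and the stage that the ears had reached was not measured in these files.

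More abundant genes among the 8 falls include d8 and gif1. For the gibberellin repressor gene d8 (GRMZM2G144744), the levels were 251 and 264 CPM in drought ears, against 517 and 563 CPM in control ears, a log2 fold change of -1.07 ± 0.05 (edgeR adjusted p = 9.99e-13). The growth coactivator gene gif1 (GRMZM2G180246) stood at 202 and 203 CPM in drought ears and 390.2 and 433 CPM in control ears, and was not called without control ear replicate 2 or with library size scaling. The gene grf1 (GRMZM2G034876), from the family whose proteins pair with GIF coactivators, rose, with 161 and 166 CPM, against 76.0 and 78.2 CPM. The other rises were knox8 (GRMZM2G135447) and the MADS gene zmm27 (GRMZM2G129034), at 1.09 ± 0.12 and 1.01 ± 0.10, and both calls were lost when either control library was left out. The meristem size genes moved little: kn1 had a log2 fold change of -0.35 ± 0.04, td1 (GRMZM2G300133, which the reference also lists as KIN5 and which is counted among the kinesins) one of -0.42 ± 0.07, fea2 (GRMZM2G104925) one of -0.04 ± 0.09 and fea3 (GRMZM2G166524) one of 0.25 ± 0.05.

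**Figure D4:**
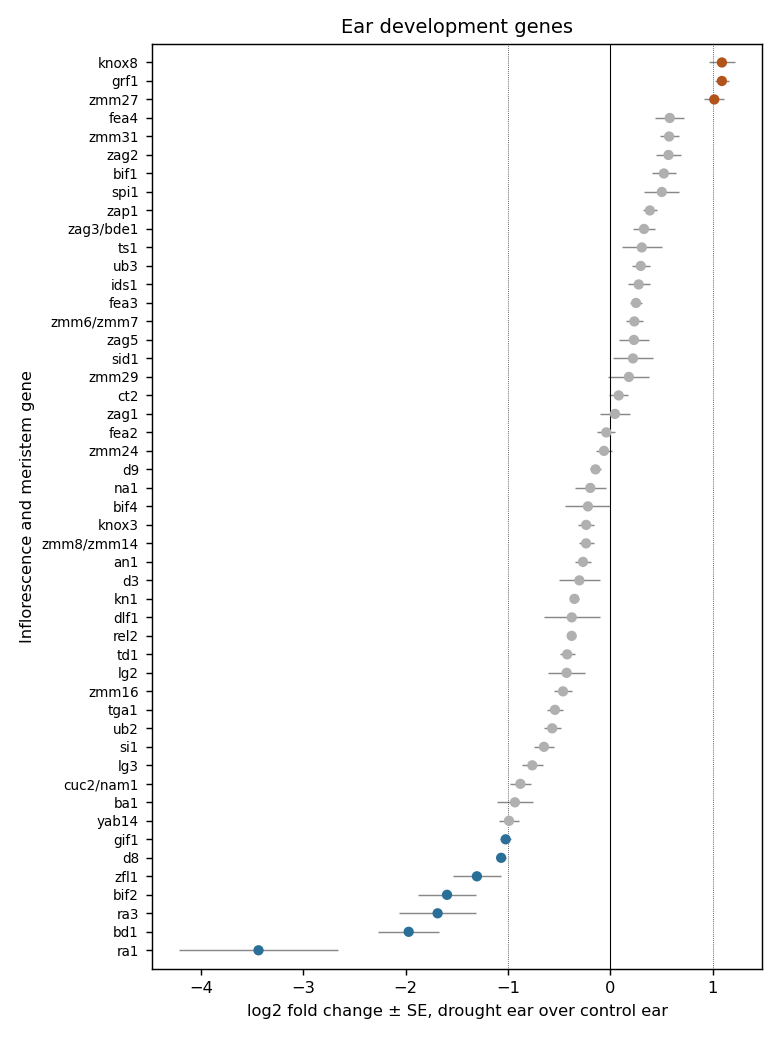
Log2 fold change, drought ear over control ear, of tested inflorescence and meristem genes, with the standard error of the fit as a line, genes called up in orange, called down in blue and not called in grey. Most genes lie between -1 and 1, the genes called down run from gif1 at -1.02 to ra1 at -3.44, and the standard error widens for the rare genes.

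Transcription factor families are set beside all tested genes with a maize name, of which 6.27% were called up and 6.42% down. The share called up was 32.1% in AP2/EREB genes. Called up and down were 6.90% and 0% of bZIP genes, 9.68% and 9.68% of MYB genes, and 8.82% and 0% of MADS genes. Counts of this size are not read as a result about a family. AP2/EREB genes, which include the dehydration-responsive DREB factors, were called up in 9 of 28 and down in 1, with a median of 0.74. Among them dbf1 (GRMZM2G061487) had 93.5 and 92.7 CPM in drought ears and 16.8 and 20.1 CPM in control ears, and EREB36 (GRMZM2G069082) had 20.6 and 18.6 CPM in drought ears and 1 and 3 counts in control ears, a ratio of 50.1 (exact 95% counting interval 19.3 to 186). The fall was ERF1 (GRMZM2G053503), at 10.2 and 8.23 CPM against 27.3 and 29.0 CPM. Without control ear replicate 1 or 2, 5 of the family were called up. NAC genes were called up in 3 of 14 and down in 1, bZIP genes in 2 and 0 of 29, MYB genes in 3 and 3 of 31, and bHLH genes in 0 and 3 of 26. Without control ear replicate 2 the calls down became 0 in NAC, MYB and bHLH genes, and the calls up 1 each in bZIP and MYB genes. The calls down without control ear replicate 1 were 0 in NAC, 0 in MYB and 1 in bHLH genes, with 1 MYB gene up. Without drought ear replicate 2, 0 NAC genes were called down and 1 bZIP and 1 bHLH gene up, and without drought ear replicate 1, 1 MYB gene down. By annotation text in the study's tables, 6 of 18 tested NAC genes were called up and 3 down, and the median was -0.14. These counts were 3 up and 1 down without control ear replicate 1, and 3 and 0 without control ear replicate 2. By edgeR, DESeq2 or limma 0 of 13 WRKY genes with a maize name were called, and 4 had an unadjusted edgeR p under 0.05, with a median of -0.17. Of 17 tested genes that the study's tables annotate as WRKY factors, 3 were called up and 0 down, with GRMZM2G449681 highest at 2.93 ± 0.36, and 1 was called without control ear replicate 1 and 0 without control ear replicate 2. MADS genes, which specify floral organs, were called up in 3 of 34 and down in 0, and 26 of the 34 had a positive value. SBP genes, which set boundaries and phase, were called down in 3 of 22, led by sbp29 (GRMZM2G067624) at 201 and 202 CPM in drought ears, against 523 and 562 CPM in control ears. Without control ear replicate 1 or 2, 1 MADS gene was called up, and without control ear replicate 2, 1 SBP gene was called down. The homeobox gene HB21 (GRMZM2G076272) had 19.0 and 19.0 CPM, against 65.7 and 64.95 CPM.

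The hormone and clock genes with a maize name that are given below changed one by one. Ethylene genes were taken by annotation text in the study's tables. Of 12 tested, 8 were called up and 0 down, and 11 had a positive value and 1 a negative one. Of 7 tested gibberellin genes taken in the same way, 3 were called up and 0 down, with 6 positive and 1 negative. Those tables cover genes chosen on these samples, and 5 of the ethylene and 2 of the gibberellin genes are in its tables of ear genes. Over all tested genes 4.8% were called up and 3.94% down. As the tables favour genes that respond to drought, these counts are not read as a result about either group. In cytokinin breakdown, the oxidase gene CKX5 (GRMZM2G325612) had 8.08 and 7.47 CPM in drought ears and 1 and 0 counts in control ears, a ratio of 79.6 (exact 95% counting interval 13.9 to 3181), and the response regulator gene crr5 (GRMZM2G156019) stood at 32.5 and 33.3 CPM, against 11.2 and 12.8 CPM. Both calls were lost without control ear replicate 2. Of 16 auxin-responsive AUX/IAA genes 2 were called up and 1 down, and of 17 auxin response factor genes 0 and 1, the fall being ARF23 (GRMZM2G441325) at -1.07 ± 0.06. The auxin exporter genes split, with PIN1d (GRMZM2G171702) at -1.01 ± 0.06 and PINY (GRMZM2G050089) at 1.01 ± 0.12. Of the AUX/IAA and PIN calls, 0 were made without control ear replicate 2. Both PIN calls were also lost without drought ear replicate 2, and that of PINY without control ear replicate 1. The jasmonate synthesis gene aos2 (GRMZM2G002178) had 53.1 and 55.5 CPM in drought ears, against 20.5 and 23.7 CPM in control ears. Both genes of the clock protein GIGANTEA fell: gigz1a (GRMZM2G107101) had 88.9 and 96.5 CPM in drought ears and 259.9 and 241 CPM in control ears, and gigz1b (GRMZM5G844173) had a log2 fold change of -1.21 ± 0.10. The hour at which each group was collected is not among the labels.

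Whether the ear responded differently from the other organs was tested as an interaction in 1 model of all 12 libraries, which compares the drought effect in the ear with that in the ear leaf and with that in the kernel. Of 26089 genes in that model, the effect differed between ear and ear leaf in 9360, or 35.9%, and between ear and kernel in 10244, or 39.3%, at an adjusted p under 0.05. Of the 1059 rises in the ear, 263 were larger than the effect in both other organs at that threshold in each test, and of the 870 falls 150 were, together 1.58% of the genes in the model. Larger here takes account of sign: the ear value lay above both others for a rise, and below both for a fall. Another organ may thus have moved further in the opposite direction. The stage differed too, since the ear was taken at V9 and the others after pollination, so organ and stage cannot be told apart.

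The rises that were larger in the ear include antenna genes. In lhcb3 the log2 fold change in that model was 1.90 in ears, -3.84 in ear leaves and -0.95 in kernels, with adjusted p = 9.13e-24 for ear against ear leaf and 3.00e-16 for ear against kernel by edgeR. The response regulator gene crr5 had 1.42 in ears, -1.03 in ear leaves and -0.29 in kernels. For knox8 the values were 1.06, -1.55 and -0.45 in ear, ear leaf and kernel. Falls larger in the ear include adh1, which had -1.16 in ears, 1.90 in ear leaves and 0.11 in kernels, and gpc4, at -2.15, 0.06 and 0.04. The SBP gene sbp29 had -1.46 in ears, 0.44 in ear leaves and -0.31 in kernels. Of the histones, hon101 (GRMZM2G080274), histone2b1 (GRMZM2G071959) and his1 (GRMZM2G003002) were in this set, with -1.29 in ears, 0.35 in ear leaves and 0.60 in kernels for hon101. The median of all 12 histone genes in the same model was -1.84 in ears, -0.03 in ear leaves and -2.05 in kernels.

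**Figure D5:**
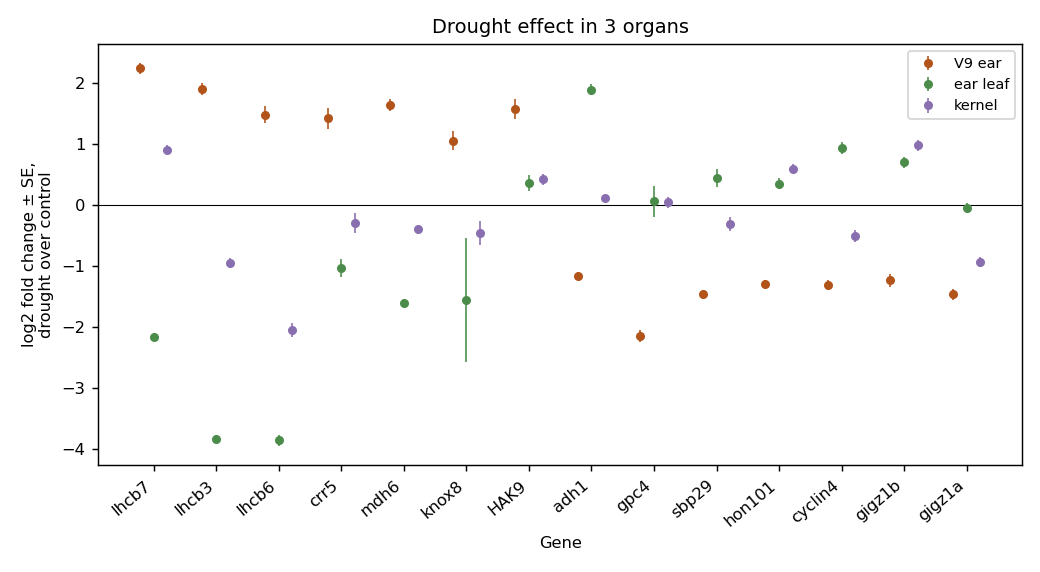
Log2 fold change with its standard error (drought over control, 12-library model) of 14 named genes in the V9 ear (orange), ear leaf (green) and kernel (purple). In each, the ear value lay beyond both others in the ear's own direction. In some, such as adh1, the ear leaf moved the opposite way and further from 0. The 7 genes at the left rose in the ear, and the 7 at the right fell there, with adh1 at -1.16 in ears, 1.90 in ear leaves and 0.11 in kernels.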

How the data were processed

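RNA from 12 field-grown maize samples was sequenced from poly(A) libraries, and each deposited file gives, per gene, the expected count that the authors' counter estimated and the authors' FPKM (fragments scaled to gene length and sequencing depth). The aligner, counter and gene annotation are not given in the sources used here. Expected counts were rounded, and the 4 ear libraries were fitted alone with edgeR 4.0.16 in R 4.3.3, with TMM factors, the filterByExpr filter, the quasi-likelihood test and Benjamini-Hochberg adjustment over 22069 genes. A call needed an adjusted p under 0.001 and a log2 fold change of at least 1. Standard errors come from the information matrix and the moderated dispersion. The deposited FPKM served for markers and for limma 3.58.1 on log2(FPKM + 1). DESeq2 1.42.0 and the other alternatives are in the closing section. The script of the fits was tested on simulated data.

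Maize names come from a RefSeq gene table matched by identifier, for 17712 of the 31163 genes with a count in the ear, of which 2505 had a maize name. Arabidopsis matches are annotation text in the study's tables, whose values were not used. Lists by gene description had been planned, and as the files hold no descriptions, families of RefSeq names were put together in their place after the files had been opened. Members and lists were chosen with earlier results of these data known. Genes named are the 12 largest rises and falls outside the study's ear tables with above 3 counts in every library and at least 10 CPM in the higher group, the 10 largest gains and losses in CPM, the on or off genes, up to 4 called members of each list with the highest level, the ear development genes, and the 5 genes in each direction that differ most from both other organs. Uncalled relatives, markers, and ERF1, SnRK2.7, HB21 and other single genes of a list were named after their values were seen. The floor of 3 counts was 0.575 to 0.592 CPM per ear library and covers counting error only. The values of 1 ear development gene are not reported here, though the list counts include it.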

Additional observations from a re-analysis of the deposited data

Results flagged for a closer look

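The drought effect in the ear differed from that in both other organs by the interaction test of the 12-library edgeR model, and the 5 genes of each direction with the widest gaps are given here, with differences on the log2 scale. Of the rises, GRMZM2G124037 had a drought effect 11.03 higher in the ear than in the ear leaf and 8.99 higher than in the kernel, with 39 and 38 counts in drought ears and 0 and 0 in control ears. GRMZM2G058070, annotated as photosystem II subunit Q-2, differed by 11.49 from the ear leaf and 8.83 from the kernel, with 94 and 92 counts in drought ears and 0 and 0 in control ears. For GRMZM2G158616 the differences were 8.43 from the ear leaf and 12.42 from the kernel, and for GRMZM2G137341 they were 10.02 and 6.46. GRMZM2G403007 differed by 4.97 from the ear leaf and 8.23 from the kernel. Of the falls, GRMZM2G014705 differed by -9.93 from the ear leaf and -11.14 from the kernel, with 0 and 0 counts in drought ears and 24 and 26 in control ears. GRMZM2G070394 differed by -6.75 and -6.57 in the same order. The effect of GRMZM2G181607 in the ear was -4.62 against the ear leaf and -6.46 against the kernel, and that of GRMZM2G358791 was -6.66 and -4.52. HIT2 (GRMZM2G126765) differed by -6.92 from the ear leaf and -4.09 from the kernel, with a log2 fold change of -2.02 in ears, 4.90 in ear leaves and 2.08 in kernels. The call in the ear itself was lost when either control ear library was left out for GRMZM2G158616, GRMZM2G137341, GRMZM2G014705, GRMZM2G070394 and HIT2, and without control ear replicate 2 for GRMZM2G124037. Where a gene had 0 counts in a whole group, the fitted difference depends on the prior count and is no bound. Organ and stage cannot be told apart in any of them.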

How the results depend on the processing

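Of 215 named genes, 176 were called. Under 12 alternatives, each of which tested 211 or more of them, 123 kept their side of the threshold wherever they were tested, and 0 called genes changed sign. The counts of 1059 genes called up and 870 down moved by over 1.5 times with no filter (468 and 409), when tested against a 2-fold threshold (393 and 246), and, for falls, with limma on log2(FPKM + 1) (514). Leaving out 1 library gave 405 to 1053 genes called up and 367 to 900 down, with the low values without control ear replicate 1 (540 up, 529 down) or 2 (405 up, 367 down). In these fits the lone library of a group is assumed to vary like the other group. The cause was not tested. Library size scaling gave 1199 up and 745 down and moved the median of all genes to 0.07. DESeq2 gave 823 and 710. With the replicate number as a block, 1215 genes were called up and 983 down, and the numbers did not pair the samples (correlation of deviations of same-numbered libraries -0.00531). For the ear development list, 8 falls became 5 without control ear replicate 1, 2 without control ear replicate 2 and 0 when tested against the 2-fold threshold. Library size scaling gave 294 rises and 115 falls larger in the ear than in both other organs, against 263 and 150. At 1 to 10 CPM, depth limits the calls.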
